A study of Mus musculus with 6 samples.

Results

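The 44 genes described here drive or mark cell division: DNA replication and its licensing, deoxynucleotide synthesis, the cyclins and their kinases, the spindle checkpoint, the chromosomal passenger complex, the kinetochore and the spindle. They were listed by symbol as cell cycle and proliferation genes and not by their measured values, but earlier results of these data were known. All 44 were found among the 24420 genes of the deposited table. Treg cells from lymph nodes of C57BL/6 female mice were sequenced in 3 OGT-sufficient samples (Foxp3YFP-Cre/wt Ogtwt/fl) and 3 OGT-deficient samples (Foxp3YFP-Cre/wt Ogtfl/fl), with no treatment named in the labels. OGT is the enzyme that attaches O-GlcNAc to proteins. CD4 bead selection was followed by a sort for YFP, and the question asked here is whether loss of OGT in Treg cells went with other levels of the proliferation genes.

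Both genotypes carried YFP-Cre expressed from the endogenous *Foxp3* locus and at least 1 floxed *Ogt* allele, and neither label describes a sample without Cre. *Foxp3* and *Ogt* are X-linked, and the females carried Cre on a single X chromosome, so YFP marks the Treg cells in which that chromosome is active. Whether the floxed allele of Ogtwt/fl mice lies on the Cre chromosome is not given, nor is whether each sample is 1 mouse or a pool. The mice were young adults by the general age range in the methods of the study, and the labels give no age of their own. The p-values therefore measure the spread between these samples, which may in part be technical.

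A dividing T cell loads the MCM helicase onto DNA in G1, commits to S phase through cyclin E and CDK2 acting on the RB and E2F proteins, and copies its genome with PCNA holding the polymerases on DNA. Entry into mitosis needs cyclin B and CDK1, and FOXM1 and B-MYB drive the late genes whose products build the spindle and segregate chromosomes. Many transcripts of the first kind are made from E2F sites, and many of the second kind from a CHR element close to the start site, often beside CCAAT boxes bound by NF-Y. Treg cells divide more than most naive T cells, and effector Treg cells in particular are rich in Ki-67.

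The promoters below show these elements for members on which the results turn. Those of *Kif11*, *Cdca8*, *Cenpf*, *Birc5* and *Tk1* belong to members with the lowest p-values, *Cdk1* carries all 3 elements, and *Mcm6* and *Mcm5* carry E2F matches. Each line is the 160 bases before the RefSeq start site (GRCm38.p6), 5′ to 3′ on the strand of the gene, with capitals on CHR (TTTGAA or TTCGAA), E2F (TTTCCCGC, TTTCGCGC, TTTGCCGC or TTTGGCGC) and CCAAT matches in either orientation, and overlapping matches run together.
Kif11: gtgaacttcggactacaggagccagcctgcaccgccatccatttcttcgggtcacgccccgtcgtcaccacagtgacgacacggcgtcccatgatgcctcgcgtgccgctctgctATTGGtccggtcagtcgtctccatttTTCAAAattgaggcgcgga
Cdca8: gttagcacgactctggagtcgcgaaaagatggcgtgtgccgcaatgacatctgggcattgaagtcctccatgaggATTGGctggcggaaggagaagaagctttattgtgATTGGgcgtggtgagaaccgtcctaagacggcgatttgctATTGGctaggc
Cenpf: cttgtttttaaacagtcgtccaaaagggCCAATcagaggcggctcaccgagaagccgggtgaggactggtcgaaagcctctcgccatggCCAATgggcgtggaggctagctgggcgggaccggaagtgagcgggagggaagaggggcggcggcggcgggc
Birc5: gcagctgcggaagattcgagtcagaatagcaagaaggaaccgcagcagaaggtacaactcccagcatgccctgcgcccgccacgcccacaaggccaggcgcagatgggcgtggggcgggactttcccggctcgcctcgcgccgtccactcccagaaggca
Tk1: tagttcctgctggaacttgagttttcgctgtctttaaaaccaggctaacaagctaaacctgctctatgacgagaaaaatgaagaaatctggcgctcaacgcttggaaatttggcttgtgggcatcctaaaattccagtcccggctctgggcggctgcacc
Cdk1: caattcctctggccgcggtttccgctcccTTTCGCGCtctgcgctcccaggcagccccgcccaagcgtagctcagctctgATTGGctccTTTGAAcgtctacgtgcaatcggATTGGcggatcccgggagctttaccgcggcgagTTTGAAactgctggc
Mcm6: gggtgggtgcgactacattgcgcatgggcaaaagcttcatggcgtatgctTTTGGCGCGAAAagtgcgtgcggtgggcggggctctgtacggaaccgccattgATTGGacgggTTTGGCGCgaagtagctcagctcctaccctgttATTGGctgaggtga
Mcm5: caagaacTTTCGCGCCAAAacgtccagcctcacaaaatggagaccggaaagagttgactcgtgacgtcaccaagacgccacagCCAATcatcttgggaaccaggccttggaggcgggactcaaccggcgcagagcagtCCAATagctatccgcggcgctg

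The windows lie at chr19:37376222-37376381 (plus strand) for *Kif11*, chr4:124936918-124937077 (minus) for *Cdca8*, chr1:189688087-189688246 (minus) for *Cenpf* and chr11:117849077-117849236 (plus) for *Birc5*. They lie at chr11:117826015-117826174 (minus) for *Tk1*, chr10:69352913-69353072 (minus) for *Cdk1*, chr1:128359706-128359865 (minus) for *Mcm6* and chr8:75109349-75109508 (plus) for *Mcm5*. *Kif11* shows a CHR match whose first base is 19 bases before the start site, with a CCAAT box upstream of it, and *Cdk1* shows CHR matches 71 and 15 bases before the start. In *Cdca8* and *Cenpf* the CHR match lies 14 and 3 bases after the start and is not printed. *Birc5* and *Tk1* hold none of the 3 elements in the bases shown.

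Promoters were listed for 35 of the 44 members, and *Gins2*, *Foxm1*, *Kif20a*, *Tpx2*, *Aurkb*, *Ccne2*, *Stmn1*, *Mcm4* and *Ccna2* were not matched. In windows of 300 bases (250 before and 50 after the start, both strands, overlaps allowed), a CHR match was held by 13 of 18 G2 and M phase members (72.2%). It was held by 3 of 16 G1/S and S phase members (18.8%), against 20.2% of the 17492 protein-coding genes listed. The E2F letters were held by 7 of 16 G1/S and S phase members (43.8%) and by 1 of 18 G2 and M phase members (5.56%), against 3.29% of protein-coding genes. CCAAT was held by 27 of the 35 members (77.1%), against 42.3% of protein-coding genes. These matches are letters in a window, not mapped binding sites.

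In all 6 libraries the members were expressed: each passed the low-count filter, and the smallest count was 12, for *Ccnb1* in OGT-deficient 1. Levels are given as CPM, counts relative to the library size scaled by edgeR's TMM method, and are compared between genes only per kilobase of the longest protein-coding transcript in GENCODE M21. Per kilobase, *Mki67*, the gene of the Ki-67 proliferation antigen, was highest with a 6-library mean of 74.7 CPM, and *Top2a*, the DNA topoisomerase of dividing cells, came next with 62.7. The helicase subunits *Mcm3* (46.1), *Mcm6* (34.0) and *Mcm4* (29.5) followed. At the low end stood *Gins2* (1.55), a part of the replicative helicase, the mitotic cyclin *Ccnb1* (2.31) and the transcription factor *E2f1* (2.75). Over the 6 libraries the least variable member per its mean was *Kif20a*, with a coefficient of variation of 4.94%, and the most variable was *Tk1*, with 29.9%.

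**Figure D1:**
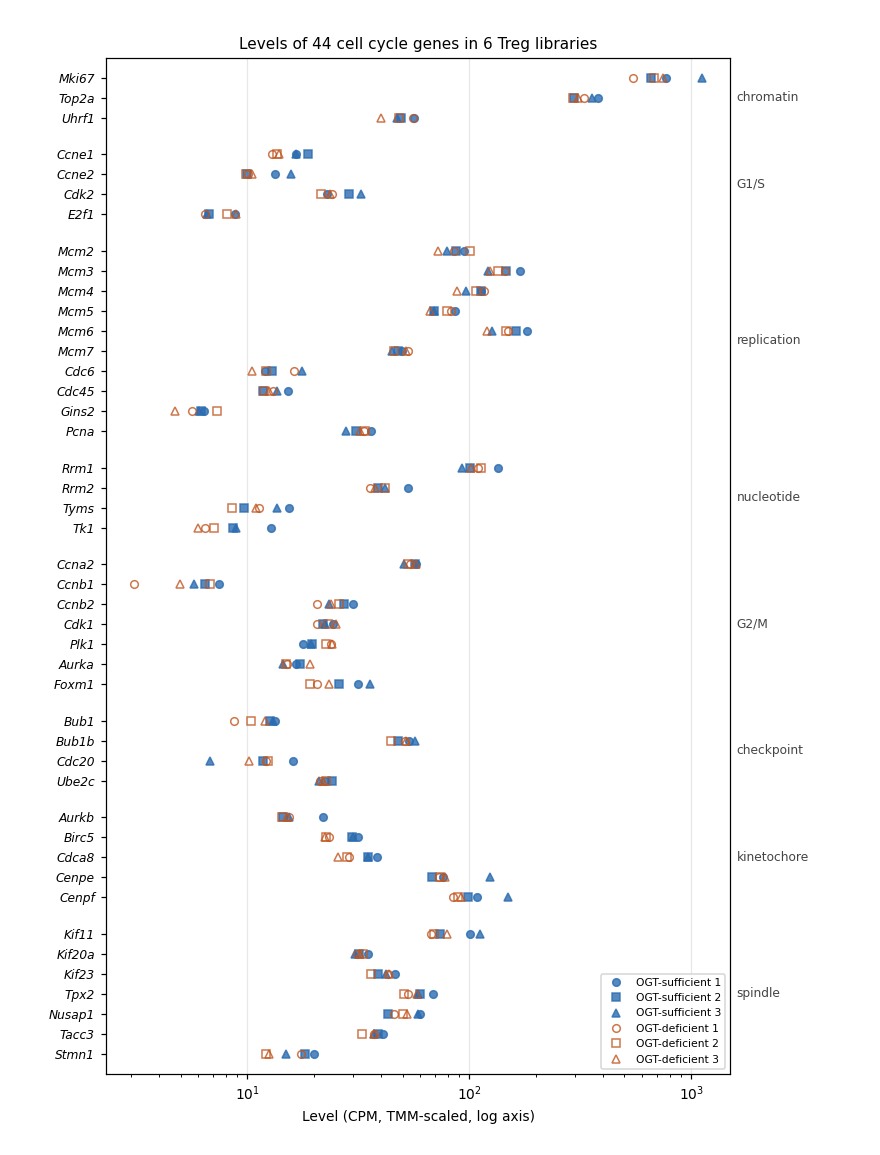
Level of each of the 44 cell cycle genes in each of the 6 Treg libraries, in CPM on a log axis, with genes grouped by role. Filled blue symbols are the OGT-sufficient and open orange symbols the OGT-deficient libraries, and for most genes the symbols of both groups lie among each other.

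*Ogt* itself had 150, 170 and 251 CPM in the OGT-sufficient libraries and 84.0, 67.0 and 96.0 CPM in the OGT-deficient ones, so the groups did not overlap. Its log2 fold change was -1.21 (adjusted p = 0.191 by edgeR's quasi-likelihood test). The adjusted p ranged from 1.6e-05 to 0.764 over 14 alternative settings.

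Total counts were between 3375454 and 4103552, and the ribosomal RNA gene *Rn45s* took 24.18% to 37.05% of them. OGT-sufficient 3 stood apart, with a count in 18346 genes against 14412 to 15197 in the others, and in 374 of 1456 olfactory and vomeronasal receptor genes against 18 to 67. All 8 Treg and T cell markers of the labelled cell type had at least 117 counts in every library. They summed to 3040, 3333 and 2300 CPM in the OGT-sufficient and 3488, 3148 and 3052 CPM in the OGT-deficient libraries, lowest in OGT-sufficient 3. Sums of different marker lists are over different genes and do not measure shares of cells. Markers of other cells were also present: macrophage markers (12 of 12, all counted in every library) summed to 4715, 4095 and 2242 CPM in the OGT-sufficient and 1616, 5828 and 6828 CPM in the OGT-deficient libraries. Erythroid precursor markers (7 of 8 listed, all with a count in every library) summed to 254 to 907 CPM in the OGT-sufficient and up to 551 CPM in the OGT-deficient libraries. Those of B cells (8 of 8) summed to 105 to 385 against 104 to 172 CPM, and those of neutrophils (6 of 6) to 15.3 to 279 against 12.1 to 13.6 CPM. The highest erythroid, B cell and neutrophil sums were in OGT-sufficient 3. Of 7 lymphocyte precursor markers, 5 were highest in that library. *Rag1* had 89 counts there against 0 to 6 elsewhere, and *Vpreb3* 23 against 1 to 9. *Rag2*, *Vpreb1* and *Ptcra* had only 10, 4 and 1 counts there and 0 in every other library. *Dntt* was instead highest in OGT-deficient 1 (14 counts, against 9 in OGT-sufficient 3). *Igll1* had 2 counts in each of OGT-sufficient 2 and 3. Whether these low counts come from precursor cells was not tested.

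None of the 44 members differed between the genotypes at an FDR of 0.1 by edgeR's quasi-likelihood test. Neither DESeq2 nor edgeR's exact test called any, and the lowest adjusted p by the quasi-likelihood test was 0.531, for *Foxm1*. Over all 10949 genes tested, 3 passed (0.0274%). At an unadjusted p under 0.05, 6 members passed (13.6%), against 7.10% of all genes tested. All 6 were lower in OGT-deficient Treg cells, where 4.01% of all genes tested were, and 0 were higher, where 3.09% were. These 6 were *Foxm1*, *Birc5*, *Cdca8*, *Cenpf*, *Kif11* and *Tk1*. The fitted fold change was below 0 for 36 of the 44 members (81.8%, against 52.7% of all genes tested), and the median log2 fold change was -0.13, against -0.02 over all genes tested. In 8 members every OGT-deficient library lay below every OGT-sufficient one (18.2%, against 7.48%) and in 1, *Plk1*, above (against 5.72%). In bulk RNA of this kind, fewer dividing cells and less RNA of these genes per cell cannot be told apart.

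The count of 6 depended on single libraries. It was 0 without OGT-deficient 2, where 1.83% of all genes tested were lower at an unadjusted p under 0.05. It was 2 without OGT-sufficient 1 (3.2% of all genes tested lower) or OGT-deficient 3 (2.88%), and 8 without OGT-sufficient 2 (4.64%). DESeq2 gave 2, *Foxm1* and *Cenpf*, with 2.0% of all genes tested lower. The members counted in these settings were all lower in OGT-deficient cells. Without OGT-sufficient 1, 25 of the 44 fold changes were below 0 and the median log2 fold change was -0.02, with 0.03 over all genes tested.

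**Figure D2:**
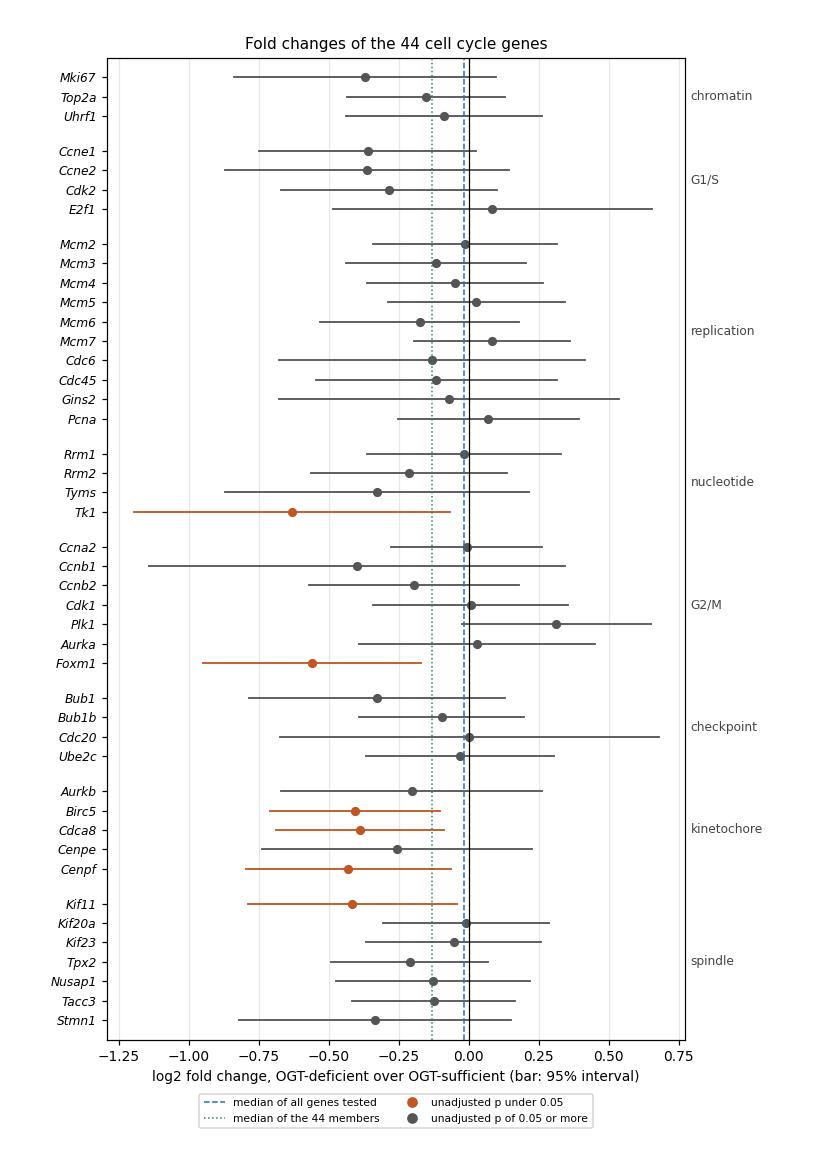
log2 fold change of each member between OGT-deficient and OGT-sufficient Treg cells (points) with its 95% interval (bars), by role. The 6 members at an unadjusted p under 0.05 are orange and all lie below 0, and the median of the 44 members (-0.13) lies below that of all genes tested (-0.02).

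*Foxm1* encodes the forkhead factor that activates G2 and M phase genes. Its level was 31.4, 25.8 and 35.7 CPM in the OGT-sufficient libraries and 20.6, 19.1 and 23.2 CPM in the OGT-deficient ones. The groups did not overlap, and the log2 fold change was -0.56 (standard error 0.17, unadjusted p = 0.0098, adjusted p = 0.531 by edgeR's quasi-likelihood test). It kept an unadjusted p under 0.05 in 13 of 14 alternative settings, with log2 fold changes from -0.67 to -0.44. *Foxm1* shares exonic bases on the same strand with *Gm44596* and *Tex52*, and how reads there were assigned is not given in the sources used here. *Mybl2*, which encodes B-MYB, the partner of FOXM1 at late promoters, had 12.2, 11.0 and 13.1 CPM against 6.94, 9.83 and 8.61 CPM. Its groups did not overlap either, and its log2 fold change was -0.52 (unadjusted p = 0.042, adjusted p = 0.685 by edgeR's quasi-likelihood test). *Mybl2* kept an unadjusted p under 0.05 in only 7 of 14 alternative settings.

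The chromosomal passenger complex, which corrects the attachment of chromosomes to the spindle, and the kinetochore gave the most members at the low end: all 5 fold changes were below 0, with a median log2 fold change of -0.39. *Birc5*, the passenger subunit survivin, had 31.4, 29.5 and 29.9 CPM in the OGT-sufficient and 23.4, 22.7 and 22.4 CPM in the OGT-deficient libraries. *Cdca8*, the passenger subunit borealin, had 38.3, 34.9 and 34.9 CPM against 28.8, 28.2 and 25.6 CPM. Both genes were even within each group and did not overlap between the groups. Their log2 fold changes were -0.41 (standard error 0.13, unadjusted p = 0.0146) for *Birc5* and -0.39 (0.13, unadjusted p = 0.0169) for *Cdca8*, and both had an adjusted p of 0.565 by edgeR's quasi-likelihood test. Without OGT-sufficient 1 the unadjusted p, by the same edgeR test, was 0.070 for *Birc5* and 0.091 for *Cdca8*. *Cdca8* shares exonic bases with *9930104L06Rik* on the other strand.

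*Aurkb*, the kinase of the same complex, had 21.8, 14.5 and 15.5 CPM against 15.4, 14.4 and 15.1 CPM. Here the first OGT-sufficient library alone was high, and the log2 fold change was -0.20 (95% interval -0.67 to 0.26). *Incenp*, the scaffold of the complex and no member of the list, had a log2 fold change of -0.18 (adjusted p = 0.757 by edgeR).

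*Cenpf*, a large protein of the outer kinetochore, had 109, 98.5 and 150 CPM in the OGT-sufficient and 84.8, 88.9 and 91.3 CPM in the OGT-deficient libraries. The groups did not overlap, and OGT-sufficient 3 was far above the other libraries. The log2 fold change was -0.43 (standard error 0.16, unadjusted p = 0.0262, adjusted p = 0.640 by edgeR), and without OGT-sufficient 3 it was -0.22 (unadjusted p = 0.073). *Cenpe*, the kinetochore motor, had 76.1, 67.6 and 124 CPM against 73.0, 73.8 and 77.5 CPM. Its log2 fold change of -0.26 became 0.07 without OGT-sufficient 3, since OGT-sufficient 1 lay among the OGT-deficient libraries and OGT-sufficient 2 below them.

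*Mki67* had 766, 658 and 1118 CPM in the OGT-sufficient and 544, 679 and 743 CPM in the OGT-deficient libraries. The groups overlapped, with OGT-sufficient 3 again the highest and OGT-deficient 1 the lowest. The log2 fold change was -0.37 (95% interval -0.84 to 0.10, adjusted p = 0.755 by edgeR), and -0.11 without OGT-sufficient 3. *Mki67*, *Cenpe* and *Cenpf* were the 3 members with transcripts over 6000 bases, and their log2 ratios of OGT-sufficient 3 to the mean of the other libraries were 0.72, 0.76 and 0.67. Across the 44 members, transcript length and this ratio had a Spearman correlation of 0.405, and across 10560 tested genes of 0.261. Genes of 1 library are not independent replicates, and the part of transcript length in these fold changes was not tested. The other 41 members had a median log2 fold change of -0.13.

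**Figure D3:**
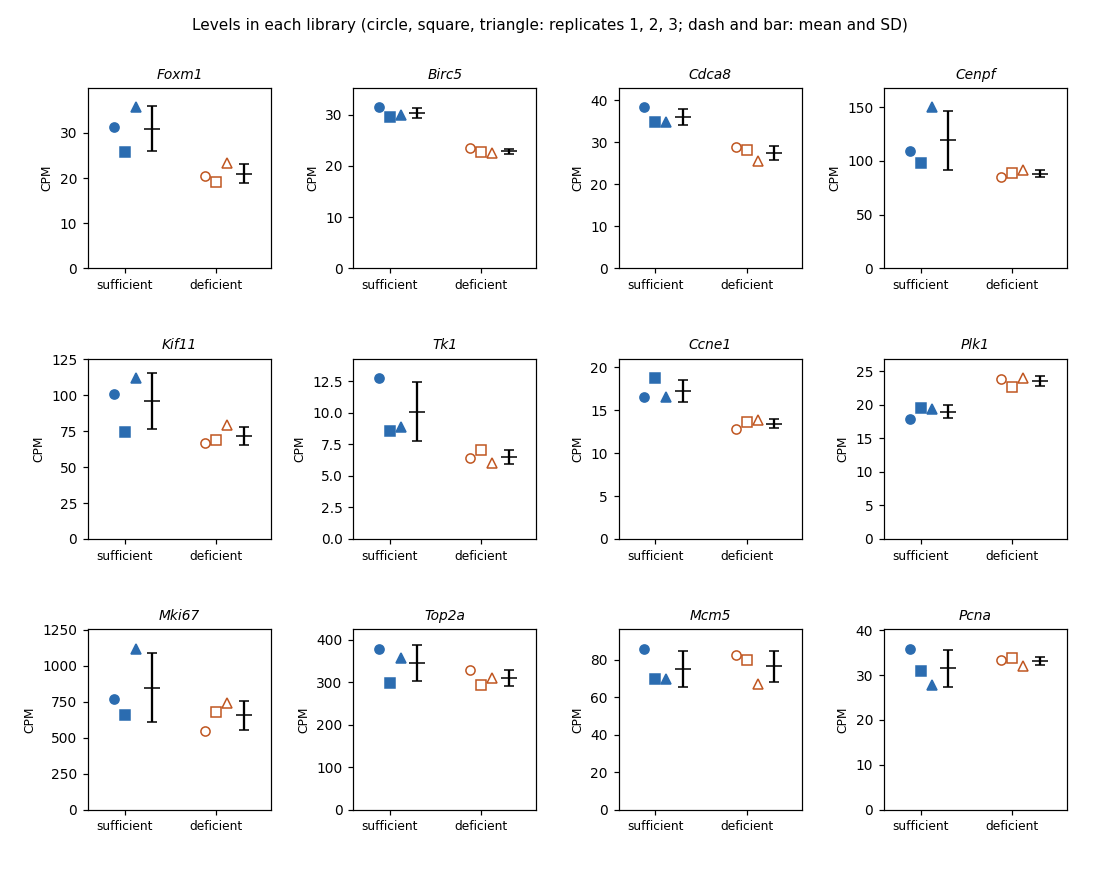
CPM of 12 cell cycle genes in each library (circle, square and triangle for replicates 1, 2 and 3), with the mean and SD of each group (n = 3). *Foxm1*, *Birc5*, *Cdca8*, *Cenpf*, *Tk1* and *Ccne1* do not overlap between groups and are lower in OGT-deficient cells, *Plk1* does not overlap and is higher, and *Kif11*, *Mki67*, *Top2a*, *Mcm5* and *Pcna* overlap.

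Among the 7 spindle and cytokinesis genes all fold changes were below 0, with a median log2 fold change of -0.13. *Kif11*, the kinesin that pushes the spindle poles apart, had 101, 74.0 and 112 CPM against 67.1, 69.0 and 79.1 CPM. OGT-sufficient 2 lay between the OGT-deficient libraries, so the groups overlapped, and the log2 fold change was -0.42 (standard error 0.16, unadjusted p = 0.0324, adjusted p = 0.668 by edgeR). Without OGT-sufficient 3 it was -0.28 (unadjusted p = 0.103). *Tpx2*, which nucleates spindle microtubules and activates Aurora A, had 68.7, 59.8 and 58.7 CPM against 52.9, 50.9 and 57.9 CPM, with no overlap (log2 fold change -0.21, 95% interval -0.49 to 0.07). *Kif20a*, a kinesin of cytokinesis, had log2 fold change -0.01 (95% interval -0.31 to 0.28). The other 4, *Kif23*, *Nusap1*, *Tacc3* and *Stmn1*, ranged from -0.34 (*Stmn1*) to -0.05 (*Kif23*).

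The G2/M cyclins and kinases were mixed. *Plk1*, the polo-like kinase of mitotic entry, had 17.8, 19.6 and 19.4 CPM in the OGT-sufficient and 23.9, 22.7 and 24.0 CPM in the OGT-deficient libraries. The groups did not overlap, in the opposite direction to the genes above, with a log2 fold change of 0.31 (standard error 0.15, unadjusted p = 0.0652, adjusted p = 0.722 by edgeR) and values of 0.27 to 0.37 in the 14 alternatives. *Plk1* shares exonic bases with *Gm44985* on the other strand. *Cdk1*, the kinase of mitosis, had 24.2, 22.0 and 22.3 CPM against 20.6, 23.2 and 25.1 CPM, which overlapped throughout (log2 fold change 0.01, 95% interval -0.34 to 0.35). Its partner *Ccnb1* had 7.45, 6.44 and 5.77 CPM against 3.08, 6.80 and 4.96 CPM. OGT-deficient 1 alone was low, and the log2 fold change of -0.40 had a 95% interval of -1.14 to 0.34. *Ccna2*, *Ccnb2* and *Aurka*, the Aurora A kinase, had log2 fold changes of -0.01, -0.20 and 0.03.

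The checkpoint genes *Bub1* and *Bub1b* and the anaphase-promoting complex partners *Cdc20* and *Ube2c* had a median log2 fold change of -0.07. *Bub1* had 13.3, 12.6 and 13.1 CPM against 8.73, 10.3 and 12.01 CPM, without overlap (log2 fold change -0.33, 95% interval -0.78 to 0.13). *Cdc20* had 16.0, 11.8 and 6.82 CPM against 12.1, 12.3 and 10.2 CPM, so that the OGT-sufficient libraries held both its highest and its lowest value. *Ube2c* was among the least variable members, with a coefficient of variation of 5.08% over the 6 libraries.

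The replication genes overlapped between the groups. In the 10 genes of licensing and the replication fork, 0 had an unadjusted p under 0.05 by edgeR and by DESeq2, 7 fold changes were below 0, and the median log2 fold change was -0.06. The 6 MCM subunits, which form the helicase, ranged from -0.18 (*Mcm6*) to 0.08 (*Mcm7*). *Mcm5* had 86.0, 69.5 and 69.5 CPM against 82.7, 79.6 and 66.8 CPM, and its 95% interval was -0.29 to 0.34 around a log2 fold change of 0.03. *Pcna*, the sliding clamp, had 35.9, 30.9 and 27.8 CPM against 33.4, 33.8 and 32.1 CPM (log2 fold change 0.07, 95% interval -0.25 to 0.39). In both genes the OGT-sufficient libraries spread more widely than the difference between the groups. *Cdc6*, *Cdc45* and *Gins2*, which load or form part of the helicase, had log2 fold changes of -0.13, -0.12 and -0.07. *Mcm7* overlaps *Ap4m1* and *Cops6* on the other strand, and *Pcna* has 2 pseudogenes by symbol, so reads of both may have been shared.

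Deoxynucleotide synthesis had a median log2 fold change of -0.27 over 4 genes. *Tk1*, the S phase thymidine kinase of the salvage pathway, had 12.8, 8.58 and 8.91 CPM in the OGT-sufficient and 6.42, 7.05 and 6.00 CPM in the OGT-deficient libraries, from counts of 23 to 48. The groups did not overlap, OGT-sufficient 1 stood highest, and the log2 fold change of -0.63 (standard error 0.25, unadjusted p = 0.0321, adjusted p = 0.668 by edgeR) had the largest size of the 44. Without OGT-sufficient 1 it was -0.39 (unadjusted p = 0.180 by edgeR). *Tk1* shares exonic bases with *Afmid* on the other strand. *Tyms*, which makes thymidylate, and the ribonucleotide reductase subunits *Rrm2* and *Rrm1* had log2 fold changes of -0.33, -0.21 and -0.02, and each was highest in OGT-sufficient 1.

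In the G1/S group, *Ccne1*, cyclin E1, had 16.5, 18.8 and 16.5 CPM in the OGT-sufficient and 12.8, 13.6 and 13.8 CPM in the OGT-deficient libraries. The groups did not overlap, and the log2 fold change was -0.36 (standard error 0.17, unadjusted p = 0.0642, adjusted p = 0.718 by edgeR). *Ccne2* had -0.36 and *Cdk2*, the partner of both cyclins, -0.28, with overlapping libraries. *E2f1*, an activator of S phase genes, had 8.78, 6.71 and 6.55 CPM against 6.42, 8.06 and 8.87 CPM (log2 fold change 0.08, 95% interval -0.49 to 0.65). Its counts were 25 to 34, and the interval holds differences of modest size in both directions. *Top2a* had 379, 298 and 358 CPM against 329, 293 and 309 CPM (log2 fold change -0.15, 95% interval -0.44 to 0.13), and *Uhrf1*, which maintains DNA methylation through replication, had -0.09.

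Summed over the list, the members gave 3182, 2735 and 3332 CPM in the OGT-sufficient and 2617, 2690 and 2708 CPM in the OGT-deficient libraries. The OGT-deficient libraries lay close together and the OGT-sufficient ones did not. Without *Mki67*, the gene with the most counts, the sums were 2416, 2078 and 2214 against 2072, 2011 and 1965 CPM. The highest library of a member was OGT-sufficient 1 in 25 of 44 genes and OGT-sufficient 3 in 9. The median deviation from the 6-library mean on the log2 scale was 0.20 in OGT-sufficient 1, against -0.01 and 0.01 in the other OGT-sufficient libraries and -0.06, -0.11 and -0.08 in OGT-deficient 1, 2 and 3. OGT-sufficient 3 was the highest for the long genes above and was the lowest library for 9 members. By phase, the 19 G1/S and S phase members had a median log2 fold change of -0.12, with 1 lower at an unadjusted p under 0.05 (5.26%). The 24 G2 and M phase members had a median of -0.17, with 5 lower (20.8%). Over all genes tested 4.01% were lower at this threshold. Without OGT-sufficient 1 only *Foxm1* and *Cenpf* stayed under it, and without OGT-deficient 2 no member did. The difference between the phases was not tested.

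**Figure D4:**
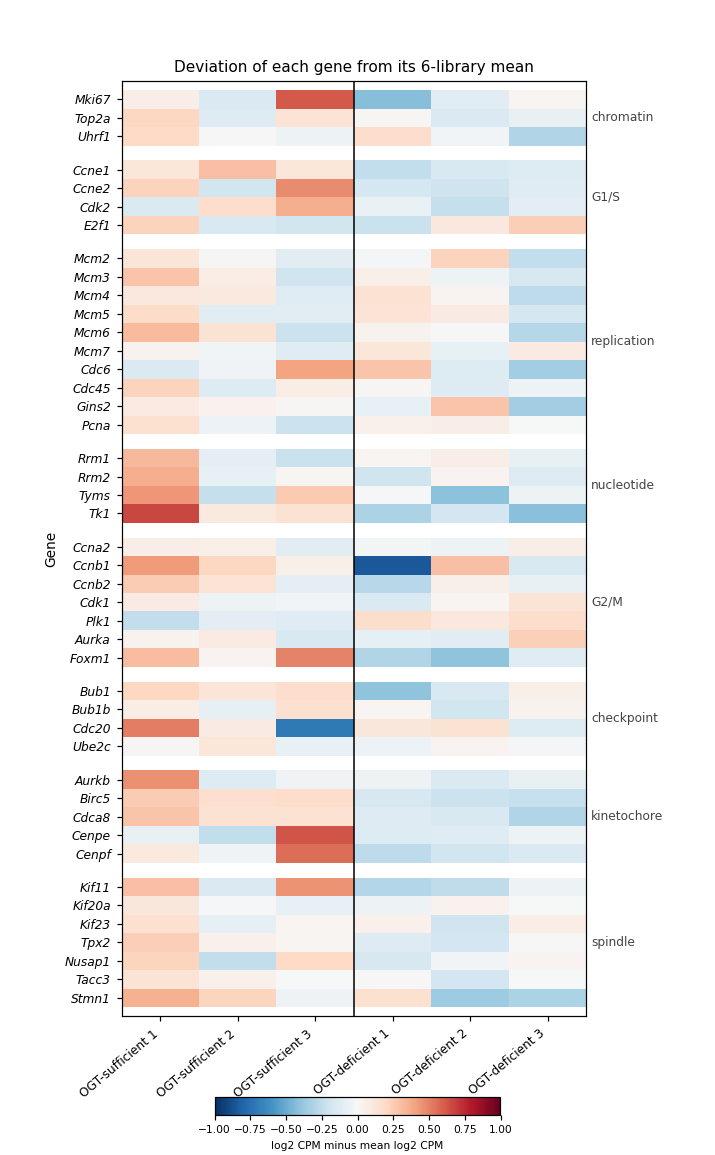
Deviation of each member from its 6-library mean (log2 CPM, color scale from -1 to 1) in each library, with OGT-sufficient libraries left and OGT-deficient libraries right of the line. OGT-sufficient 1 is red for most genes, and OGT-sufficient 3 is red for *Mki67*, *Cenpe*, *Cenpf* and *Foxm1* and blue for *Cdc20*.

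Fold changes were also set beside the promoter elements, as a description. The 17 members with a CHR match had a median log2 fold change of -0.10, against -0.15 in the 18 without, and the 8 with an E2F match had -0.10, against -0.15 in the 27 without. Among the 6 members at the low end, 5 had a listed promoter, of which 3 held a CHR match (*Cdca8*, *Cenpf* and *Kif11*). *Plk1*, on the other side, held one too, 31 bases after its start.

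Another 99 cell cycle genes were listed by function, also with earlier results of these data known, and 95 of them passed the low-count filter. None passed an FDR of 0.1 by edgeR's quasi-likelihood test, and their median log2 fold change was -0.15. At an unadjusted p under 0.05 by the same test, 11 were lower (11.6%, against 4.01% of all genes tested). At that threshold 3 were higher, where 3.09% of all genes tested were. The lower count depended on single libraries. Without OGT-sufficient 1 it was 3 (3.2% of all genes tested lower), with 4 higher, and without OGT-sufficient 2 it was 13 (4.64%), with 4 higher. DESeq2 gave 4 lower (2.0% of all genes tested) and 3 higher. Of 35 further G2 and M phase genes 7 were lower: the kinetochore protein *Ndc80* (-0.35), the microtubule depolymerase *Kif2c* (-0.50), *Hmmr* (-0.58) and *Aspm* (-0.41) of the spindle, *Prc1* (-0.32) of the midzone, cyclin F (*Ccnf*, -0.44) and the centriole kinase *Plk4* (-0.50), as log2 fold changes. *Ckap2*, a spindle protein, was higher, with 11.7, 12.1 and 8.91 CPM against 15.9, 16.1 and 17.2 CPM (log2 fold change 0.59, adjusted p = 0.565). Of 30 further S phase genes 3 were lower, the origin kinase subunit *Dbf4* (-0.46), the polymerase *Pola1* (-0.49) and the exonuclease *Exo1* (-0.67).

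Genes of growth entry and quiescence had medians near 0. The 8 G1 cyclins, kinases and growth entry genes had a median log2 fold change of 0.01, and *Myc*, which drives cell growth, had 95.5, 91.5 and 81.0 CPM against 119, 104 and 134 CPM. Its groups did not overlap (log2 fold change 0.41, unadjusted p = 0.012, adjusted p = 0.559 by edgeR). The 13 genes of the DREAM complex and quiescence had a median of 0.05. *Klf2*, a factor of resting T cells, had 198, 224 and 170 CPM against 311, 277 and 259 CPM, without overlap (log2 fold change 0.52, unadjusted p = 0.0041, adjusted p = 0.405 by edgeR). The 6 tested cell cycle inhibitors and pocket proteins had a median of 0.02 and none at an unadjusted p under 0.05 by edgeR, while *Cdkn1a*, *Cdkn1c*, *Cdkn2a* and *Cdkn2b* did not pass the low-count filter. The genes with the highest CPM of each list, *Dnmt1*, *Smc4*, *Ccnd2*, *Rbl2*, *Btg1* and *E2f8*, had log2 fold changes of -0.07, 0.12, 0.09, -0.19, 0.04 and -0.26.

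**Figure D5:**
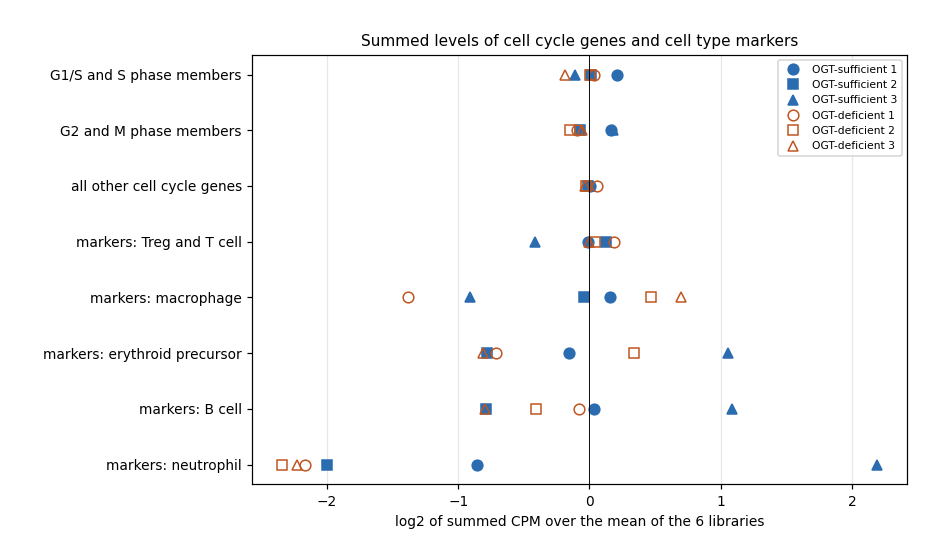
Summed CPM of cell cycle gene groups and of cell type marker lists in each library, as log2 of the ratio to the mean of the 6 libraries. The cell cycle sums stay close to 0, with OGT-sufficient 1 highest for the G1/S and S phase members, while macrophage markers are lowest in OGT-deficient 1 and erythroid, B cell and neutrophil markers are highest in OGT-sufficient 3.

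The marker lists of other cells spread more between libraries than the members did: the macrophage sum differed 4.22-fold between its highest and lowest library and the erythroid sum 3.64-fold, against 1.27-fold for the members. Erythroid precursors and activated B cells divide too, and the part of these and of macrophages in the levels of the members was not tested.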

How the data were processed

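The authors trimmed paired-end reads with Trimmomatic 0.33 and mapped them with Bowtie2 2.2.4.0 to mm10 (the submitters' processing notes). Those notes name featureCounts where the methods of the paper name Cuffquant. Strand setting and annotation are not given in the sources used here. The deposited values are whole-number counts per gene and sample, without normalization. The deposited p-values, fold changes, FDR, Bonferroni values and group means of the authors' own test were not used, and 0 columns of other samples were left out.

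Groups are the genotypes of the labels. The members, lists and tests were chosen with earlier results of these data known. The fit used edgeR 4.0.16 in R 4.3.3 (quasi-likelihood test, TMM scaling, filterByExpr at a minimum count of 10, Benjamini-Hochberg adjustment over the 10949 genes tested, FDR threshold 0.1). DESeq2 1.42.0, other scalings and filters, a block on the replicate number, and each library left out in turn were alternatives. The pipeline was tested on simulated data. CPM are counts over the TMM-scaled library size, and a floor of 3 counts is 0.756 to 0.805 CPM. Group values are over n = 3 libraries, and an unadjusted p is edgeR's before adjustment. Intervals of fold changes are 95% intervals from the same fit. The median biological coefficient of variation was 0.159, and replicates of a group differed by more than sampling noise (chi-square over degrees of freedom 3.49 to 24.2). Lengths and overlaps come from GENCODE M21 and promoters from RefSeq GRCm38.p6, by symbol.

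Named with a value in every library were *Ogt*, the 8 members of lowest p, *Mki67*, *Top2a*, *Mcm5*, *Pcna*, *Ccnb1*, *Cdk1* and *E2f1*. Other cell cycle genes were named at an unadjusted p under 0.05 or as the highest by CPM of their list. The values of *Aurkb*, *Cenpe*, *Tpx2*, *Bub1* and *Cdc20* in every library, and *Incenp*, were added after values were seen.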

Additional observations from a re-analysis of the deposited data

How the results depend on the processing

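The count of members at an FDR of 0.1 was 0 in all 14 alternative settings. At an unadjusted p under 0.05 it was 6 as reported and 2 with DESeq2, and it ranged from 0 to 8 when libraries were left out in turn. The other cell cycle genes at this threshold were 14 (11 lower and 3 higher), with 7 by DESeq2 (4 lower and 3 higher) and 7 to 17 with libraries left out. With libraries left out, 3 to 13 were lower and 3 to 4 higher, and without OGT-sufficient 1 they were 3 lower and 4 higher. Genes of the whole table at this threshold were 777, with 452 by DESeq2 and 462 to 889 with libraries left out. Genes passing an FDR of 0.1 in the whole table were 3, but 38 with DESeq2, 80 with edgeR's exact test, 131 without a low-count filter and 0 to 9 with libraries left out. The median log2 fold change of the members ranged from -0.185 to -0.023 with libraries left out, nearest to 0 without OGT-sufficient 1. Library size alone moved the median of all genes tested to -0.06. The log2 fold change of *Cenpe* ranged from -0.419 to 0.066 with libraries left out, and turned its direction without OGT-sufficient 3. Of the members, 24 kept their sign in every setting and 20 changed it in at least 1, and in all of these but *Cenpe* the reported value lay within 1 standard error of 0. *Ogt* passed an FDR of 0.1 with DESeq2, the exact test and no filter, and *Klf2* with no filter (0.065). The causes were not tested.

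For samples with the same replicate number, the correlations of their deviations from the group means were -0.28, 0.0073 and -0.12. Each correlation rests on 1 sample per group and on a mean of 3 libraries, so a shared litter, day or batch cannot be judged from them. The replicate numbers are not said to mark one. With the replicate number as a block, 0 genes passed an FDR of 0.1 in the whole table (679 at an unadjusted p under 0.05 by edgeR), 5 members and 12 other cell cycle genes had an unadjusted p under 0.05, and the median of the members was -0.13.

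*Ccnb1*, *E2f1*, *Gins2* and *Tk1* rest on small counts, and their intervals are wide. The parts of depth and of spread between libraries in these intervals were not tested.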
